A study of Arabidopsis thaliana with 8 samples.

Results

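The loci described here are the protein-coding and open reading frame loci of the Arabidopsis mitochondrial genome that carried reads. Members were all loci whose identifier starts with ATMG and that had at least 10 coding-sequence (CDS) reads summed over the 8 libraries. This left 60 of 122 mitochondrial loci, among 27415 loci in all. Of the other loci, 28 had 1 to 9 reads and 34 had none. The members were thus chosen by their read total, which is a description and is not tested. Just inside the minimum stood ATMG00710, ATMG00840 and ATMG01260 with 12 reads each, ATMG00120 and ATMG00665 with 11, and ATMG00320 with 10. Just outside it stood ATMG00150 and ATMG00750 with 8 reads, and ATMG00010, ATMG00400, ATMG00600 and ATMG00810 with 7.

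The study asked how light changes transcript levels and translation in dark-grown (etiolated) seedlings. All seedlings were Arabidopsis thaliana of the Columbia-0 ecotype, grown for 4 days in darkness on half-strength Murashige and Skoog medium, and harvested either without light or after 4 h of white light. From each condition, steady-state mRNA was purified with a kit and fragmented, and ribosome-protected (RP) fragments were made by RNase I digestion of a polysome extract. Each of the 4 groups (mRNA dark, mRNA light, RP dark and RP light) had 2 libraries, numbered as repeat 1 and repeat 2. The labels do not say that repeats came from separate cultures, so p-values here reflect the scatter between these libraries alone, which may be technical. Whole seedlings were used, and a lower level per library cannot be told apart from fewer mitochondria-rich cells or from less RNA per cell.

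Plant mitochondria keep a small genome that encodes core, mostly membrane-embedded subunits of the respiratory chain and of ATP synthase, together with proteins that mature cytochrome c, some ribosomal proteins of the mitochondrial ribosome, a splicing factor and a protein transporter. The remaining subunits are encoded in the nucleus and imported. Plant mitochondrial mRNAs are not stably polyadenylated as nuclear mRNAs are, and they are translated by the organelle's own ribosomes. Several of the genes are split into parts that are transcribed separately and joined by trans-splicing, as are nad1, nad2 and nad5. Arabidopsis also carries a large insertion of mitochondrial DNA in chromosome 2 of the nucleus, so that many mitochondrial sequences exist in both genomes.

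By role, the 60 members comprised 11 loci for complex I (NADH dehydrogenase, which passes electrons from NADH into the chain), 3 for complex IV (cytochrome c oxidase, which reduces oxygen), 5 for ATP synthase, 4 for cytochrome c maturation and 3 for ribosomal proteins. There was 1 locus each for matR (a maturase that acts in intron splicing) and mttB (a Tat-type transporter subunit). A further 31 were open reading frames with no assigned role, and ATMG01120 could not be named. The files give identifiers only. Roles and gene names were assigned by locus identifier beforehand, and gene names were then checked against the TAIR10.1 annotation. Reading frame names were taken from that annotation. This left 44 members named and 16 without a name. CDS length matched 18 gene names and, where only 1 reading frame had that length, gave 11 reading frame names. A further 5 names (nad6, nad1 part 3, nad4L, rpl2 and atp6-2) rest on a length that another annotated gene or reading frame shares, and are less certain. Another 5 (ccmFC, nad2 part 1, matR, mttB and atp9) were matched to the same frame with another start or stop codon, and 5 reading frames through an annotated pseudogene of that length.

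The members held 75075 CDS reads over all libraries, a small share of each. Members took 325 and 222 reads per 1000000 CDS reads (RPM) in the dark mRNA libraries and 261 and 221 in the light ones. In the RP libraries they took 519 and 1020 RPM in the dark, and 356 and 523 after light. The shallowest library, RP light repeat 1, had 0.0356% of its reads on members, with a 95% Wilson interval of 0.0339% to 0.0373%, which covers counting error only. The share was higher in RP than in mRNA within each repeat and condition, by 0.68 and 2.20 on the log2 scale in the dark and by 0.45 and 1.25 after light. Without ORF107G, a reading frame described below, the difference was 0.53 and 1.83 in the dark, and after light it was -0.82 in repeat 1 and 0.95 in repeat 2. Total CDS reads ran from 30997341 to 37245819 in the mRNA libraries and from 4617343 to 40972194 in the RP libraries. The shallow RP libraries were both of repeat 1, and RP light repeat 1 held 1642 member reads in all. Between 18 and 22 members had no read in an RP library, against 1 to 5 in an mRNA library. The repeats also differed in plastid content. Plastid-encoded loci took 2.59% and 4.54% of CDS reads in the dark and light mRNA libraries of repeat 1, and 0.253% and 0.369% in those of repeat 2.

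Which mitochondrial genes had reads was set beside their copies in chromosome 2. Each named CDS was cut into windows of 28 bases, about the length of a ribosome footprint, and the windows were looked up in the TAIR10.1 genome. The named protein genes without a single read were cob (cytochrome b of complex III), rpl5, rps4, rps7 and rps12 (ribosomal proteins), ccmC (cytochrome c maturation), nad3 (complex I) and atp8 (ATP synthase). In all of them 100% of windows also occurred outside the mitochondrial genome. The chromosome 2 locus that matches cob, AT2G07727, had 286 reads, and the one that matches rpl5, AT2G07725, had 74. Those that match rps7 and rps4 had 12 and 3. The loci that match rps12, ccmC, nad3 and atp8 over 100% of windows had 0 reads, so for these genes neither copy was counted. How reads with several matches were placed was not given in the sources used here. Repetition alone did not go with an absence of reads: nad4 had 100% of its windows outside the mitochondrion and nad7 97.3%, and both were among the better covered members. Unlike the genes without a read, however, neither was the best match of any annotated chromosome 2 locus compared here. For atp9 (the ring subunit of ATP synthase), 217 reads stood at the mitochondrial locus and 547 at AT2G07671. For atp1 (the alpha subunit) the totals were 233 and 714, and for cox3 85 and 133. By contrast, cox1 (1.28% of windows outside), nad9 (3.66%), nad5 part 3 (0.410%), atp4 (0%) and ccmB (0%) were nearly free of outside copies, so their values rest least on how repeats were treated.

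Levels are given below as CDS reads per kilobase of CDS per 1000000 CDS reads of the library, which allows genes to be compared per length. In the dark mRNA libraries the highest group means belonged to nad5 part 3 (26.1), nad1 part 3 (24.6), atp4 (23.5), nad4L (23.1) and nad7 (20.1). The values of the individual libraries overlapped among these genes, since nad5 part 3 stood at 25.2 and 27.1, nad1 part 3 at 30.9 and 18.3, and atp4 at 14.9 and 32.1. Their order is therefore not resolved by these repeats. In the dark RP libraries the order was another one. ORF107G came first (mean 442), followed by cox1 (120), cox2 (98.1), atp4 (66.9) and nad4L (45.3). After light the RP order began with ORF107G (474), cox1 (50.5), cox2 (47.0) and atp4 (32.8).

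**Figure D1:**
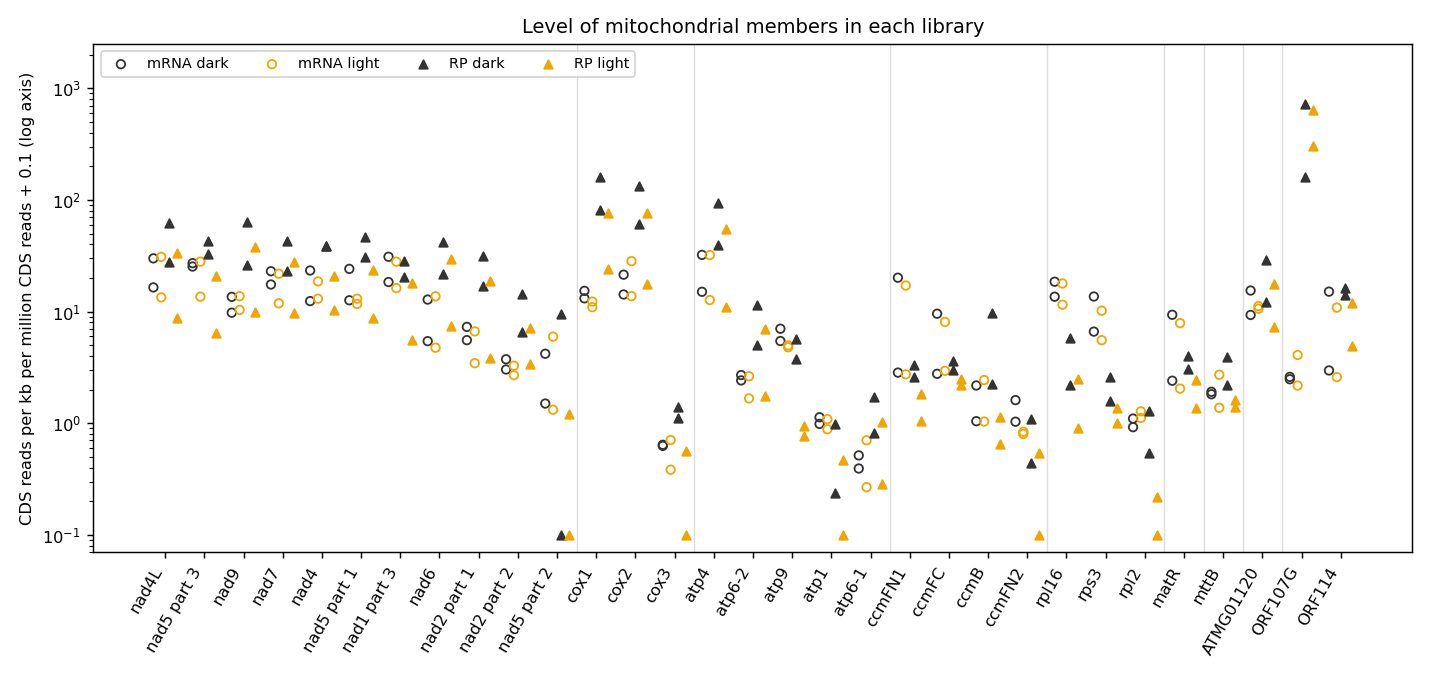
Level of the named-role members and of ORF107G and ORF114 in every library, as CDS reads per kilobase per 1000000 CDS reads plus 0.1 on a log axis. Circles are mRNA and triangles RP libraries, with dark in black and light in orange, and vertical lines separate the roles. Triangles of cox1, cox2 and ORF107G in the dark lie above their circles, while those of rpl16 and rps3 lie below.

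Whether ribosome-protected reads were more or less frequent than mRNA reads was compared next, first in the dark. A difference here is the log2 change from mRNA to RP after TMM scaling, and it sets 2 kinds of library side by side that were prepared differently. Of the 60 members, 46 passed the filter on low counts and were tested among 19823 genes with edgeR's quasi-likelihood test. ORF107G and cox1 passed at a Benjamini-Hochberg adjusted p under 0.05 in the dark, both higher in RP, and no member was lower. That is 2 of 46 higher, where 0.787% of all tested genes were, and 0 lower, where 3.87% were. DESeq2 called 8 higher and 2 lower of the 39 members to which it gave an adjusted p, where it called 5.41% and 8.74% of all such genes. At an unadjusted p under 0.05, 12 members were higher and 3 lower, where 9.24% and 15.2% of all genes were. After light ORF107G alone passed as higher, where 0.101% of all genes did, and no member passed as lower, where 2.36% did. DESeq2 called 3 higher and 5 lower, where it called 2.41% and 6.13% of all genes. At an unadjusted p under 0.05, 3 members were higher and 10 lower there, where 5.47% and 13.4% of all genes were. The libraries were also compared by their ranges. In the dark both RP values lay above both mRNA values for 17 members and below them for 12, where 11.9% and 37.5% of all genes did. After light they lay above for 4 members (cox1, nad2 part 2, ORF107G and ATMG00280) and below for 21, where 9.23% and 39.7% did. These counts are no support for a difference, because some members passed the filter through 1 kind of library only. Of the 46, 9 open reading frames had under 10 RP reads in all, 3 of them none, and ATMG00280 had no mRNA read.

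For cox1, the catalytic core subunit of cytochrome c oxidase, the mRNA level was 15.2 and 13.0 in the dark and 10.9 and 12.2 after light. The RP level was 81.3 and 159 in the dark and 23.9 and 77.0 after light. All RP values lay above all mRNA values. The fitted difference was 3.35 ± 0.66 (SE, 2 libraries a group) on the log2 scale in the dark (edgeR adjusted p = 0.0448) and 2.48 ± 0.63 after light (adjusted p = 0.101). For cox2, another core subunit, the mRNA level was 21.3 and 14.1 in the dark and 28.2 and 13.6 after light, and the RP level was 61.4 and 135, then 17.4 and 76.6. The dark groups did not overlap, whereas RP light repeat 1 lay within the mRNA range. The cox2 difference of 2.72 ± 0.84 in the dark did not pass (edgeR adjusted p = 0.113).

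ORF107G (ATMG01060), an open reading frame of 324 bases and unknown role, had by far the highest RP level. Its mRNA level was 2.38 and 2.50 in the dark and 3.98 and 2.07 after light, from 25 to 40 reads a library. Its RP level was 161 and 723 in the dark and 644 and 303 after light, from 252, 3508, 964 and 4025 reads. The groups were far apart, and the difference was 7.77 ± 0.96 in the dark (edgeR adjusted p = 0.0266) and 7.54 ± 0.94 after light (adjusted p = 0.0297). In the annotation this reading frame overlaps the gene of the aspartate transfer RNA trnD(GTC) on the same strand, and 100% of its windows also occur outside the mitochondrial genome. The part of the tRNA and of the copies in these reads was not tested. The tie of the locus to this reading frame rests on its length and on an alignment of 66 bases, at 87.9% identity, with its annotated chromosome 2 pseudogene. ORF107G held 10.02% and 23.0% of all member reads in the dark RP libraries and 58.7% and 18.8% in the light ones, and is left out where stated below.

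The calls of cox1 and ORF107G rested on all 8 libraries together. When any 1 library was left out, neither passed in the dark: the adjusted p of ORF107G ran from 0.0583 (without mRNA light repeat 2) to 0.210 (without RP dark repeat 2), and that of cox1 from 0.0619 (without RP light repeat 2) to 0.215 (without RP dark repeat 2). Both differences stayed positive throughout, at 6.33 to 8.47 for ORF107G and 2.81 to 3.74 for cox1. After light, ORF107G passed only without RP dark repeat 1 or repeat 2 (adjusted p = 0.0230 and 0.0219). It was lost without any of the mRNA dark (adjusted p = 0.0592 and 0.0600), mRNA light (0.142 and 0.124) or RP light libraries (0.183 and 0.272).

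Sorted by role, the medians lay on different sides of zero. Over complexes I and IV and ATP synthase, 15 of 18 tested loci were higher in RP than in mRNA within both repeats in the dark, with a median difference of 1.60, and 1 was lower within both. Over all tested genes the median was 0.01, and 39.8% were higher within both repeats. The median was 1.34 for the 10 complex I loci, 2.72 for the 3 complex IV loci and 1.84 for the 5 ATP synthase loci. No median is given for the 18 tested open reading frames, since 9 of them passed the filter through mRNA reads and had to lie below 0. The median of the 3 ribosomal protein loci was -1.87. That of the 4 cytochrome c maturation loci was -0.60, but its side was not stable, at -1.47 in repeat 1 and 0.47 in repeat 2. Over all 46 tested members, those 9 reading frames included, the median was -0.10. Within both repeats 19 were higher and 15 lower, where 39.8% and 40.2% of all genes were. That median had no stable side, since it was 0.52 without mRNA dark repeat 1, -0.78 without mRNA dark repeat 2 and 0.81 over members with at least 100 reads. The 14 untested members were 13 open reading frames and nad5 part 2, a piece with a CDS of 22 bases, and had 28 reads or fewer each.

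Among the complex I loci, nad9 (a subunit of the peripheral arm) stood at 9.68 and 13.5 in dark mRNA and at 26.3 and 63.4 in dark RP. These groups did not overlap, and the difference was 2.26 ± 0.69 (edgeR adjusted p = 0.110). nad6, a membrane subunit, stood at 5.33 and 12.7 in dark mRNA and at 21.7 and 42.4 in dark RP, also without overlap, and its difference was 2.17 ± 0.81 (adjusted p = 0.166). nad4L, a further membrane subunit, stood at 16.4 and 29.9 against 27.9 and 62.6, where the groups overlapped without TMM scaling. Its difference, after that scaling, was 1.30 ± 0.72 (adjusted p = 0.326). nad7 stood at 17.4 and 22.9 against 23.2 and 42.4, a difference of 1.00 ± 0.57 (adjusted p = 0.332). At the low end was nad1 part 3, at 30.9 and 18.3 in dark mRNA and 20.1 and 28.3 in dark RP, with a difference of 0.23 ± 0.64 (adjusted p = 0.869). The complex I loci thus spanned 0.23 to 2.26 in the dark.

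In the dark, the trans-spliced parts of one gene lay on the same side. nad2 part 1 stood at 7.19 and 5.45 in dark mRNA and 16.8 and 31.3 in dark RP. nad2 part 2 stood at 3.64 and 2.93, then at 6.49 and 14.4, with a difference of 1.95 ± 0.54 (edgeR adjusted p = 0.0880). Per length, part 1 exceeded part 2 in every library. For nad5, part 1 stood at 24.05 and 12.5 in dark mRNA and part 3 at 25.2 and 27.1, and in dark RP they stood at 31.0 and 46.8 against 32.4 and 42.9. The fitted difference in the dark was 1.32 ± 0.59 for part 1 and 0.81 ± 0.57 for part 3 (edgeR adjusted p = 0.230 and 0.433). After light it was 0.75 ± 0.59 and -0.18 ± 0.57 (adjusted p = 0.550 and 0.900), on opposite sides of 0. Parts of one gene encode one protein and are not independent members.

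In ATP synthase, atp4 (a subunit of the peripheral stalk) stood at 14.9 and 32.1 in dark mRNA and at 39.2 and 94.6 in dark RP, a difference of 1.84 ± 0.85 (edgeR adjusted p = 0.247). The 2 copies of atp6, which encodes a membrane subunit of the proton channel, differed in level but not in direction. atp6-2 stood at 2.32 and 2.60 in dark mRNA and 4.92 and 11.4 in dark RP, a difference of 2.04 ± 0.71 (adjusted p = 0.142). atp6-1 was counted on 136 reads in all, and its difference was 2.07 ± 0.86 (adjusted p = 0.202). The copies share most of their windows with each other and with chromosome 2, so their split is uncertain. atp9 and atp1 depended on the chromosome 2 copies. Counted at the mitochondrial locus alone their differences in the dark were -0.20 ± 0.48 and -0.47 ± 0.91, and with the reads of the matching chromosome 2 locus added they were 1.70 ± 0.77 and 1.22 ± 0.91, none past the threshold (edgeR adjusted p = 0.846, 0.801, 0.236 and 0.462).

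Of the 3 ribosomal protein genes, rps3 and rpl16 lay on the other side. In the dark rpl2 lay on neither side, with a difference of -0.006 ± 0.62 (edgeR adjusted p = 0.997). Within repeats it was 0.64 in repeat 1 and -0.68 in repeat 2. After light the rpl2 difference was -3.11 ± 0.79 (adjusted p = 0.101). rps3 stood at 13.5 and 6.52 in dark mRNA and at 2.47 and 1.48 in dark RP, then at 10.097 and 5.45 against 0.907 and 1.26 after light. rpl16 stood at 18.4 and 13.5 in dark mRNA and at 5.74 and 2.10 in dark RP, then at 17.7 and 11.4 against 2.41 and 0.814 after light. For both genes every RP value lay below every mRNA value. The differences of rps3 were -2.15 ± 0.61 in the dark and -2.48 ± 0.62 after light (edgeR adjusted p = 0.0931 and 0.0960), and those of rpl16 were -1.87 ± 0.66 and -3.20 ± 0.73 (adjusted p = 0.148 and 0.0775), so none passed.

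For matR and for ccmFN1 and ccmFC of cytochrome c maturation, the dark mRNA level differed more between repeats than the fitted difference from RP. ccmFN1, a part of the heme lyase, stood at 20.0 and 2.74 in dark mRNA and 17.01 and 2.64 in light mRNA. Its RP level was 2.52 and 3.20 in the dark and 0.942 and 1.72 after light. The dark RP values lay beside the mRNA of repeat 2 and far below that of repeat 1. The fitted difference of -1.80 ± 1.21 in the dark (edgeR adjusted p = 0.414) turned to 0.44 without mRNA dark repeat 1. ccmFC, another part of the heme lyase, stood at 9.47 and 2.67 in dark mRNA and at 3.49 and 2.90 in dark RP. matR stood at 9.26 and 2.30 in dark mRNA and at 3.89 and 2.94 in dark RP. For both, the RP values lay between the mRNA values of the repeats. ccmFN1, ccmFC and matR were lower in repeat 2 than in repeat 1 in both conditions, and so were ORF114, which stood at 15.0 and 2.87 in dark mRNA, and 16 of the 18 tested open reading frames in the dark. The median gap, repeat 2 minus repeat 1, was -1.52 for these open reading frames in the dark, -0.38 for complex I and 0.02 for all tested genes. The plastid-encoded loci had a median gap of -2.95 in the same libraries. What part the mRNA preparation has in these gaps was not tested.

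Summed by role, the division of the member reads differed between the mRNA repeats, and also between mRNA and RP within a repeat. Complexes I and IV and ATP synthase held 58.8% of member reads in dark mRNA repeat 1 and 77.3% in repeat 2, and 54.8% and 77.7% after light. Cytochrome c maturation, ribosomal proteins and matR together held 27.6% and 14.7% in dark mRNA, and 5.81% and 1.92% in dark RP. The 30 open reading frames other than ORF107G held 11.6% and 5.78% in dark mRNA and 2.86% and 0.687% in dark RP. Most reads of these reading frames were mRNA reads, so the read total that chose them favoured a high mRNA share.

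A few members are described singly. ccmB stood at 0.942 and 2.08 in dark mRNA and at 9.64 and 2.15 in dark RP, so that repeat 1 alone stood well apart, and its difference was 2.23 ± 0.84 (edgeR adjusted p = 0.167). ORF114 stood at 16.2 and 13.9 in dark RP beside its mRNA of 15.0 and 2.87, a difference of 0.94 ± 1.014 (adjusted p = 0.624), the second highest RP level among the open reading frames. mttB stood at 1.72 and 1.81 in dark mRNA and 3.84 and 2.09 in dark RP, and its difference was 0.99 ± 0.49 (adjusted p = 0.277). ATMG01120 stood at 15.3 and 9.23 against 12.1 and 29.1, with overlap and a difference of 1.02 ± 0.62 (adjusted p = 0.366). ATMG00280, singled out by its values, had no mRNA read in any library and 0, 3, 4 and 20 RP reads. The lowest fitted difference in the dark was that of ATMG00630, with 24 and 8 mRNA reads and no RP read.

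**Figure D2:**
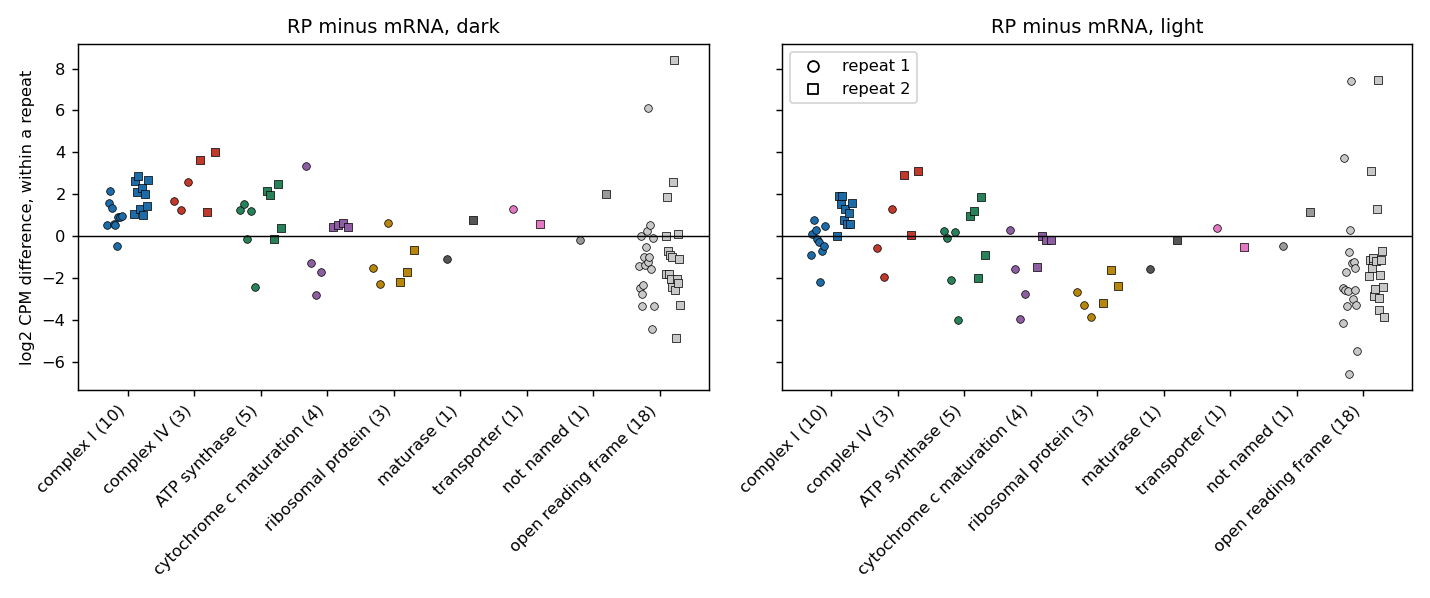
Difference between RP and mRNA in log2 CPM (counts per 1000000 reads) for each tested member within repeat 1 (circles) and repeat 2 (squares), by role, in the dark (left) and after light (right). The number of tested members stands beside each role. In the dark most complex I and complex IV points lie above 0, and most open reading frames lie below it, 9 of them with under 10 RP reads in all.

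After light, the fitted medians of complexes I and IV and ATP synthase lay above 0, and that of the ribosomal protein genes below it. The median difference between RP and mRNA was 0.65 for complex I, 1.51 for complex IV and 0.97 for ATP synthase, against 0.01 for all tested genes. Within repeat 1 these role medians lay below 0, at -0.20, -0.54 and -0.06. In repeat 2 they were 1.21, 2.93 and 0.99, so their side was not stable. Over all 46 tested members it was -0.95, with 10 higher and 23 lower within both repeats, where 39.9% and 39.3% of all genes were. Of the 23, 15 were open reading frames. The 46 hold the 9 reading frames with under 10 RP reads, which passed the filter through mRNA reads and had to lie below 0. This median and these counts are therefore partly set by the filter and are no support for a difference. The median was -3.11 for the 3 ribosomal protein genes. That is the value of rpl2, which had 0 and 5 RP reads after light, and it lies between those of rpl16 (-3.20) and rps3 (-2.48). Over complexes I and IV and ATP synthase, 7 of 18 loci were higher in RP within both repeats, where 39.9% of all genes were. ATMG01370, an open reading frame, had the lowest fitted difference. It had 106 and 44 mRNA reads after light and no RP read in either library, where 3 reads a library would be the limit a count of 0 allows. The dark and light comparisons use different libraries of each kind.

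The choice of members had not used UTR reads, which gave a further readout. Where the tables give a UTR, the share of a locus's reads that fell in its CDS was compared between RP and mRNA. The comparison was added after the values were seen and took loci with at least 40 reads in every group. Of 29 members with a UTR length, 13 qualified. In 6 of these the CDS share was higher in RP than in mRNA in all 4 pairs of libraries (dark and light, repeat 1 and repeat 2), where 95% of all qualifying genes (14889 of 15667) were.

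The 6 loci were cox1, cox2, nad9, nad4L, nad5 part 3 and ATMG01120. For cox1, whose CDS is 44.5% of the annotated length, 58.9% and 81.4% of mRNA reads fell in the CDS in the dark and 53.4% and 81.0% after light. In RP libraries 97.0% and 99.2% did in the dark, and 97.2% and 99.2% after light. For cox2 the mRNA share was 58.2% to 64.9% and the RP share 91.3% to 99.1%. For nad9 the mRNA share was 20.1% to 35.4% and the RP share 60.3% to 93.2%. For these 3 genes the RP and mRNA ranges did not overlap.

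The other 7 did not show this. In rpl16 the CDS share was 79.3% to 83.0% in mRNA. In RP it was 34.9% and 21.8% in the dark and 27.7% in light repeat 2, and light repeat 1 held 6 CDS and 2 UTR reads. The other 3 RP libraries had 28, 61 and 47 reads in its 90-base 3′ UTR against 15, 17 and 18 in its CDS. In atp4, 422 of the dark repeat 2 RP reads lay in a 3′ UTR of 150 bases, beside 820 in the CDS. In cox3, 914 of the same library's reads lay in the 5′ UTR and 12 in the CDS, whose windows all recur in chromosome 2. The shares of atp6-1, atp6-2 and atp9 in RP crossed those in mRNA. rps3 has 6 annotated UTR bases without a read, so it had no room to differ. The tables give UTR lengths and no positions, and an overlap of a UTR with a neighbouring CDS was not analysed here.

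**Figure D3:**
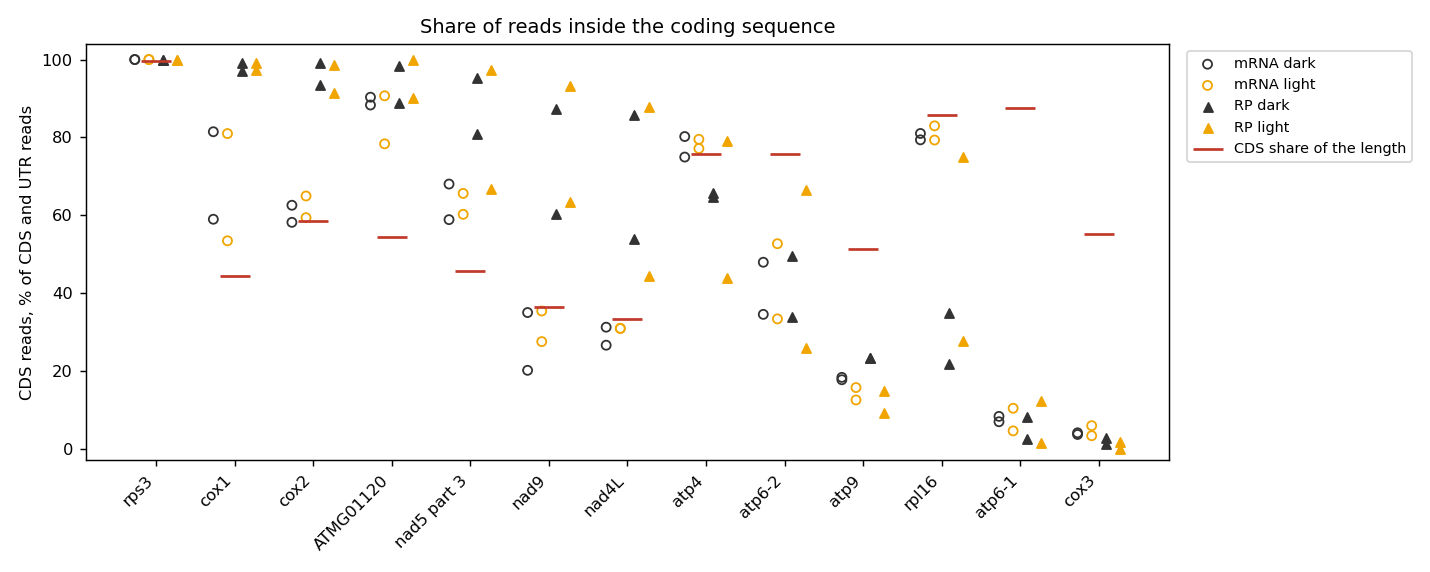
Percent of a locus's CDS and UTR reads that fell in the CDS, for the 13 members with a UTR and enough reads, in each mRNA library (circles) and RP library (triangles), dark in black and light in orange. Red bars give the CDS share of the annotated length. RP lies above mRNA for cox1, cox2 and nad9, and below it for rpl16 and cox3.

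The effect of light was compared within each kind of library. In mRNA, no tested member passed edgeR's test at an adjusted p under 0.05, where 4.78% of all genes did, and none had an unadjusted p under 0.05, where 19% of all genes did. DESeq2 called none either, where it called 11.3% of all genes. The fitted changes of the 46 members ran from -0.69 to 0.87 with a median of -0.04, beside 0.01 for all genes. Within repeats, 8 members were higher after light in both and 8 lower in both, where 42.2% and 39.0% of all genes were. Without TMM scaling, both light values lay above both dark values for rpl2 alone, where 20.0% of all genes did. They lay below for cox1, atp9, ccmFN2 and ORF294, where 25.2% did. With TMM scaling, cox1 and ORF294 changed by 0.06 and 0.02 in repeat 2, so these genes were not lower within both repeats. cox1 mRNA stood at 15.2 and 13.0 in the dark against 10.9 and 12.2 after light, and nad9 mRNA at 9.68 and 13.5 against 10.2 and 13.6. The complex I loci moved apart between repeats, with a median of -0.37 in repeat 1 and 0.21 in repeat 2.

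In RP libraries, most members were lower after light, though no single one passed. With edgeR, 0 of 46 had an adjusted p under 0.05, where 6.84% of all genes did, and 4 had an unadjusted p under 0.05, all lower, where 8.61% of all genes were lower at that p. DESeq2 called 2 of 41 members lower, where it called 5.36% of all genes lower. The median change was -0.86, against -0.03 for all tested genes. Within repeats, 32 of 46 members were lower after light in both, where 39.0% of all genes were, and 2 were higher in both, where 37.4% were. All 18 tested loci of complexes I and IV and ATP synthase were among the 32. The median of these 18 was -1.81 in repeat 1 and -0.65 in repeat 2.

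Over both repeats the groups overlapped for most of them. Without TMM scaling, both RP light values lay below both RP dark values in 17 members, where 28.3% of all genes did. In ATMG00280 alone both lay above, where 21.8% did. The repeats differed about as much as the conditions, and for cox2, atp4 and nad4L RP light repeat 2 lay above RP dark repeat 1. RP of cox1 stood at 81.3 and 159 in the dark and at 23.9 and 77.0 after light, which did not overlap without TMM scaling. The fitted change was -1.09 ± 0.61 (edgeR adjusted p = 0.372). RP of cox2 stood at 61.4 and 135 against 17.4 and 76.6, where light repeat 2 lay between the dark values, with a change of -0.88 ± 0.80 (adjusted p = 0.607). atp4 RP stood at 39.2 and 94.6 against 10.8 and 54.7, and its change was -0.83 ± 0.83 (adjusted p = 0.648). The size of these changes depended on single libraries. Without RP light repeat 2 they were -2.29 for cox1, -2.46 for cox2 and -2.59 for atp4. Without RP light repeat 1 they were -0.45 for cox1 and -0.16 for cox2, and without RP dark repeat 2 that of atp4 was -0.07.

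Of the complex I loci, nad4 stood at 39.0 and 38.2 in dark RP and at 10.2 and 20.6 in light RP. Its groups lay apart, and the change was -1.17 ± 0.53 (edgeR adjusted p = 0.266). nad5 part 3 stood at 32.4 and 42.9 against 6.39 and 20.7, also without overlap, and changed by -1.26 ± 0.58 (adjusted p = 0.276). nad4L stood at 27.9 and 62.6 against 8.58 and 33.4, with overlap, and changed by -0.89 ± 0.72 (adjusted p = 0.560). All 10 tested complex I loci were lower within both repeats, with fitted changes from -1.26 to -0.60. With 1 library left out, nad4 ran from -1.89 to -0.71 and nad5 part 3 from -2.52 to -0.67 (without RP light repeat 2 and repeat 1), and nad4L from -2.38 to -0.20 (without RP light repeat 2 and RP dark repeat 2).

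The 4 members with an unadjusted p under 0.05 were atp9, rpl2, ccmB and ATMG01350, named here because their values singled them out, and all had few RP reads. atp9 had 7 and 14 RP reads in the dark and 1 and 7 after light, and the dark and light levels did not overlap. Its change was -2.49 ± 0.59 (edgeR adjusted p = 0.0573), and -0.66 ± 0.76 (adjusted p = 0.694) when the reads of its chromosome 2 copy were added. rpl2, a ribosomal protein of the large subunit, had 6 and 7 RP reads in the dark and 0 and 5 after light, with a change of -2.74 ± 0.85 (adjusted p = 0.121). ccmB, a subunit of the heme-handling transporter, had 29 and 20 against 3 and 14, with a change of -2.89 ± 0.95 (adjusted p = 0.138). The atp6 copies were lower within both repeats, by -0.70 ± 0.69 for atp6-2 and -0.72 ± 0.85 for atp6-1 (adjusted p = 0.639 and 0.706), and both turned to 0.03 and 0.04 without RP dark repeat 2.

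ORF107G went its own way between repeats. In repeat 1 its RP level was 161 without and 644 with light, and in repeat 2 it was 723 and 303, so the fitted change of 0.19 ± 0.70 (edgeR adjusted p = 0.922) averaged opposite directions. Without it, the members' share of RP reads was 467 and 786 RPM in the dark and 147 and 425 after light. That is a log2 change of -1.67 in repeat 1 and -0.89 in repeat 2, against -0.55 and -0.96 with it. Counted by role, the summed reads of complexes I and IV and ATP synthase went from 415 and 750 RPM in the dark to 122 and 405 after light, while in mRNA they stood at 191 and 171 and at 143 and 171. The RP sums of dark and light did not overlap, though dark repeat 1 lay close to light repeat 2.

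**Figure D4:**
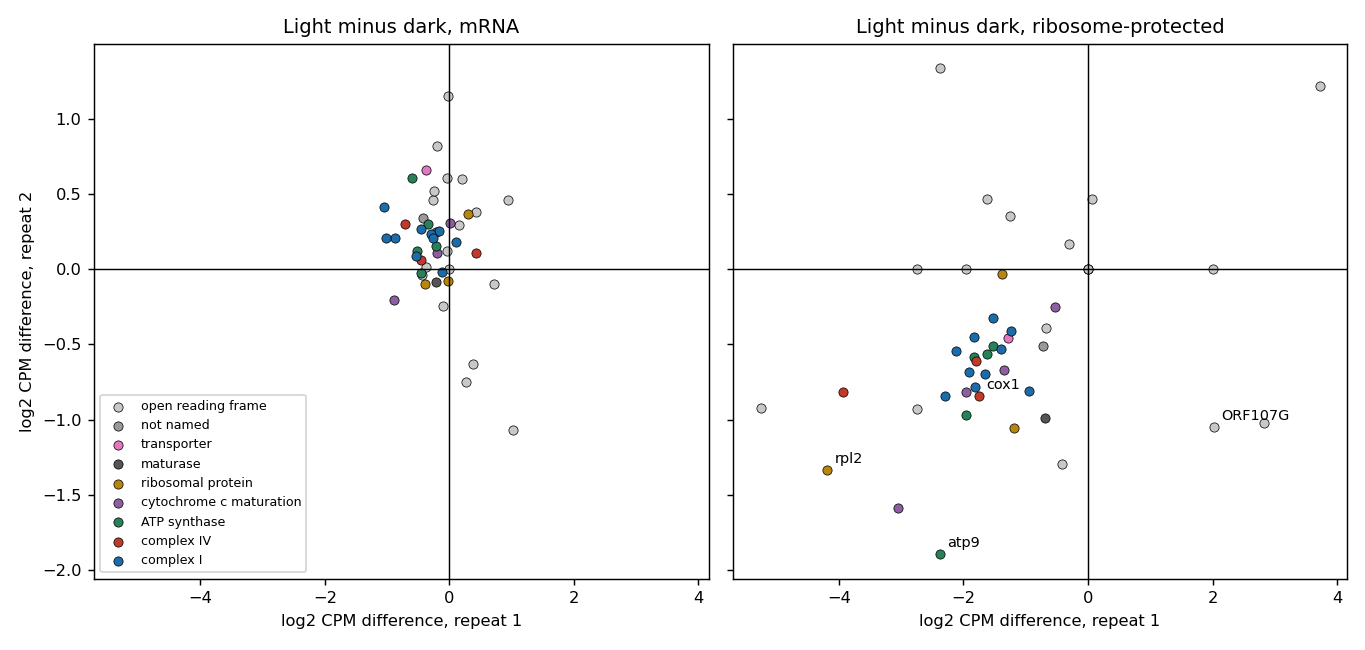
Change after light in log2 CPM in repeat 1 (horizontal) and repeat 2 (vertical) for the 46 tested members, in mRNA (left) and RP libraries (right), coloured by role. The horizontal and vertical scales differ in length. In RP the loci of complexes I and IV and ATP synthase all lie at the lower left, and ORF107G lies at the lower right.

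Whether light changed RP and mRNA differently was tested as an interaction. No member passed (edgeR, 0 of 46 at an adjusted p under 0.05), and neither did any of the 19823 genes (0.0%). An unadjusted p under 0.05 was reached by 4 members, all lower, where 0.313% of all genes were lower at that p. They were atp9, rpl2, ccmB and ATMG01350, the same 4 that had few RP reads. The interaction of atp9 was -2.21 ± 0.73, and -0.71 ± 1.06 when the reads of its chromosome 2 copy were added. DESeq2 called none of the 18 members to which it gave an adjusted p, where it called 0.107% of all such genes. The median of the members was -0.73 and that of all tested genes -0.07. Within repeats, the change in RP was below that in mRNA in both for 34 of 46 members, where 37.8% of all genes were. The comparison uses the same libraries as the light comparisons and is no independent support for them.

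The nuclear genes for the same complexes were set beside these values. Of 43 listed nuclear loci for respiratory complexes, cytochrome c, ATP synthase and mitochondrial RNA polymerase, 2 were dropped and 41 were tested. The product names of the dropped loci, L-galactono-1,4-lactone dehydrogenase and male gametophyte defective 3, do not state the listed role. Some kept loci also had names that do not state it, such as MALE GAMETOPHYTE DEFECTIVE 1, so the rule was not applied evenly. The median change of the 41 after light was 0.07 in mRNA and -0.09 in RP. With edgeR 1 locus passed in each, where 4.78% and 6.84% of all genes did. That locus was AT5G25450, a 14 kDa subunit of the cytochrome reductase complex, which rose by 2.10 ± 0.29 in mRNA (edgeR adjusted p = 0.0150) and 1.57 ± 0.29 in RP (adjusted p = 0.0284). AT4G10040, cytochrome c-2, had the next smallest p, with changes of 1.66 ± 0.51 and 1.15 ± 0.52 (adjusted p = 0.141 and 0.265). In RP, 19 of the 41 were lower after light within both repeats, where 39.0% of all genes were. Between RP and mRNA in the dark, 36 of the 41 were higher in RP within both repeats, where 39.8% of all genes were. Their median difference there was 0.68.

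The plastid-encoded loci, the other organelle genes in the libraries, lay the other way in light. Among 80 tested plastid loci the median RP change after light was 1.15, and 3 passed as higher with edgeR, where 4.71% of all genes did. Within both repeats 1 locus was lower, where 39.0% of all genes were. In mRNA their median change was 0.55. The difference between the organelles was not tested as such.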

How the data were processed

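The authors deposited, for 8 libraries, read counts per locus in the 5′ UTR, CDS and 3′ UTR, and RPKM values. The build is TAIR10 per the submitters' processing notes. The aligner, the strand setting and the treatment of reads with several matches were not given in the sources used here. The deposited RPKM of each locus equalled its count over its length and the library's summed counts of the 3 regions, and was used only for this check. The 16 columns of UTR RPKM were not used.

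CDS counts were fitted with edgeR 4.0.16 in R 4.3.3 (quasi-likelihood, TMM, filterByExpr by group, all 8 libraries, 1 mean a group), with Benjamini-Hochberg adjustment over 19823 genes and a threshold of 0.05. TMM factors ran from 0.824 to 1.26. Differences within repeats used log2 CPM with a prior count of 2. DESeq2 1.42.0 was an alternative. The pipeline was tested on simulated data. With 2 libraries against 2 an exact permutation test cannot go below 0.333, so none is given. Members, roles and gene lists were chosen with earlier results of these data known. Named loci were the 2 highest of each role, those called, the extremes of RP against mRNA, both atp6 copies and those next to the read minimum; others are named as singled out by their values. Gene names were assigned by locus identifier and checked against TAIR10.1 by CDS length or reading frame. Names of open reading frames (by length or pseudogene) and repeated windows come from TAIR10.1. Its mitochondrial sequence is not that of TAIR10, so no coordinates are given. Reads of the chromosome 2 copies were added where at least 90% of windows were shared.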

Additional observations from a re-analysis of the deposited data

Results flagged for a closer look

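In 6 tested members mRNA was higher after light in both repeats while RP was lower in both, after TMM scaling, where 3.17% of all 19823 tested genes were. The fitted interaction, RP change minus mRNA change on the log2 scale, was -0.86 for nad9, -1.21 for cox2, -3.12 for ccmB, -3.10 for rpl2, -2.02 for ATMG00670 and -5.79 for ATMG01350. None passed edgeR's test at an adjusted p under 0.05. The mRNA of cox2 stood at 21.3 and 14.1 reads per kilobase per 1000000 CDS reads in the dark and 28.2 and 13.6 after light, so that in repeat 2 the direction is higher with TMM scaling and lower without it. The same held for ccmB mRNA in repeat 1, at 0.942 in the dark and 0.935 after light, with a scaled change of 0.016. ATMG01350 had 2 and 1 RP reads in the dark and none after light, so its value depends on the prior count. Groups of 2 libraries are too small for a check of single libraries that stand apart.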

How the results depend on the processing

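No member passed for light in mRNA or for the interaction under any alternative run. The replicate block raised the calls to 4 in RP light against dark (all lower), to 19 in RP against mRNA in the dark (14 higher) and to 19 after light (8 higher). A block separate for mRNA and RP libraries gave 11 (all lower), 14 (7 higher) and 12 (2 higher), and cox2 after light turned to -0.0199. Of all tested genes, the block called 32.0%, 40.4% and 32.6% in these comparisons and the separate block 33.1%, 28.4% and 17.8%. Repeats share only a number. The deviations of same-numbered libraries correlated at 0.575 to 0.806 over genes, which is a hint from the data and not from the design. DESeq2 called 2, 10 and 8 members in them, and 13.8%, 14.1% and 8.55% of all genes. Without a scaling factor, 4 passed after light. With only the 4 libraries of a comparison, none passed in the dark or after light, and the dark median was 0.88 over the 38 members then tested; the interaction needs all 8 libraries and has no such value. Without ORF107G, added after the data were seen, 1 passed in the dark and 0 after light. The dark median moved to 0.52 with chromosome 2 reads added and to 0.81 for members with at least 100 reads, and the light median to -2.12 without a filter. Adding chromosome 2 reads turned atp9 and atp1 in the dark to 1.70 and 1.22. With 1 library left out, calls ran from 0 to 0 in the dark and from 0 to 2 after light, and were 0 throughout in RP light. Medians ran from -0.41 to 0.35 (mRNA light), -1.65 to -0.43 (RP light), -1.53 to -0.38 (interaction), -0.78 to 0.52 (RP against mRNA, dark) and -1.82 to -0.53 (light). Ranges that crossed 0 were, in the dark, -2.65 to 0.436 for ccmFN1 (0.436 without mRNA dark repeat 1), -0.517 to 0.146 for atp9 (0.0874 and 0.146 without mRNA dark repeat 1 and RP dark repeat 2) and -2.51 to 0.119 for atp1 (0.119 without RP dark repeat 1). After light they were -0.0731 to 2.23 for cox2 and -0.791 to 1.70 for atp4, lowest without RP light repeat 2. For RP light they were -0.507 to 1.63 for ORF107G (below 0 without RP dark or RP light repeat 1), and -2.29 to 0.033 and -2.64 to 0.0371 for atp6-2 and atp6-1, highest without RP dark repeat 2. The cause was not tested. Comparisons with RP light rest on 1642 member reads in repeat 1.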
